A study of Drosophila melanogaster with 3 samples.

Results

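Of the 8551 peaks in the authors' thresholded (optimal) list for rgr, 1234 had their summit in intergenic DNA away from gene starts. A peak was a member when its summit lay inside no annotated gene and more than 500 bp from every annotated transcript start (Ensembl, transposable elements aside), so the members were chosen by position and not by peak strength. They made up 14.4% of the list (exact 95% interval 13.7 to 15.2%), and the share was 13.7%, 14.4% and 13.7% in the top 8551 entries that replicates 1, 2 and 3 gave on their own. The other summits were 3896 within 500 bp of a start (promoter peaks), 3190 in introns away from starts and 231 in exons. The peaks come from chromatin immunoprecipitation and sequencing (ChIP-seq) of rgr (regular), assayed as a transcription factor in Drosophila melanogaster. Whole wandering larvae of the third instar, males and females pooled, came from 1 transgenic line that stably expresses rgr with GFP at its carboxyl terminus, and an antibody to GFP pulled down sonicated chromatin. All 3 biological replicates belong to this 1 group, so no condition can be compared, and binding in the separate tissues of a larva is averaged. Each list was called against a control alignment, the lists carry no read counts, and the depth behind them is therefore unknown.

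Intergenic DNA in the fly holds enhancers, insulators and the proximal parts of promoters, as well as repeats and pericentromeric heterochromatin. Enhancers carry short sites for sequence-specific factors and can act on a start many kilobases away, past other genes. Insulator proteins such as Su(Hw) and CTCF bind sites of fixed sequence, and core promoters carry words such as the TATA box and the initiator, which position RNA polymerase.

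The members' summits stood in short AT-rich stretches between more GC-rich flanks, and the sequences below show this contrast and the words that carried it. They are the plus strand of dm6 from the RefSeq copy of the assembly, the bases within 50 bp of a summit or of a flank position 300 bp to one side. Capitals mark a word, written in reverse complement where it lies on the other strand. The first pair is the strongest member off the second chromosome's right arm, 3757 bp from the start of CG31668, at chr2L:2202359-2202459, with the TATA word TATAAA present at both marked places, and then its flank at chr2L:2202659-2202759.
CG31668 summit: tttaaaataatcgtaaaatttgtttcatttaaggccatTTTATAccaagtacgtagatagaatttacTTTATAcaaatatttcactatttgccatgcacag
CG31668 flank: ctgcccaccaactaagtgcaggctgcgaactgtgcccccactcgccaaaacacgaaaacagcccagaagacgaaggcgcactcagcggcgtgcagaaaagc
The summit window was 74.3% A or T and the flank 40.6%. The next is the member 4640 bp from the start of CG43245 (chr3L:10776515-10776615), with the homeodomain core TAATTA in capitals. After it come the member 4110 bp from CG44869 (chr2L:15414201-15414301), with the core promoter word GTATATTT (Ohler motif 6), and the member 10957 bp from tRNA:Ile-TAT-1-2 (chr3L:781270-781370), with a TA repeat.
CG43245 summit: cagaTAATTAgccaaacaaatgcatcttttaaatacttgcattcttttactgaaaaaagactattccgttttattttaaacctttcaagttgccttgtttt
CG44869 summit: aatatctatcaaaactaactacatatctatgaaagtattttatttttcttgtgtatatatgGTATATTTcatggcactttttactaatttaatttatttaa
tRNA:Ile-TAT-1-2 summit: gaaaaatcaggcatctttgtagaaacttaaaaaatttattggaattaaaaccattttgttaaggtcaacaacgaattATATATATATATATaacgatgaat
These windows were 72.3%, 81.2% and 77.2% A or T. The member 2486 bp from CG15625 (chr2L:4887459-4887559) carried the Su(Hw) core TGCATACTT and is the strongest off that arm that did.
CG15625 summit: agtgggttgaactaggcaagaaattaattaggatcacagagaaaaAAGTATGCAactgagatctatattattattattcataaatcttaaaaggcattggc
A strong member of the opposite composition lay 549 bp from sp3 (summit chr3R:21520329-21520429, flank chr3R:21520029-21520129), with 51.5% A or T at the summit and 71.3% in the flank.
sp3 summit: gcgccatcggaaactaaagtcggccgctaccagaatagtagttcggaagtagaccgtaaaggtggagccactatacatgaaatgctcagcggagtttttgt
sp3 flank: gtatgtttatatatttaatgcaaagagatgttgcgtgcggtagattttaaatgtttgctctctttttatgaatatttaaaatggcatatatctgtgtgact

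Over all 1234 members the summit windows were 66.5% A or T and the flanks 54.6%, a difference of 11.8 percentage points, and the summit was the richer in 79.4% of members. All windows of the same length that tile the intergenic DNA meeting the rule (355858 windows) averaged 59.2%, so that summits lay above and flanks below the composition of the surrounding class. In the top lists of replicates 1, 2 and 3 the difference was 12.0, 11.3 and 10.7 points. It was larger in every replicate than at intronic peaks (9.63, 9.01 and 8.30 points) and at promoter peaks (5.23, 4.28 and 4.06 points). The classes come from the same 3 lists, so they were compared within replicates. The two-sided exact permutation p over the 3 pairs was 0.25 for each comparison, the smallest that 3 pairs allow, and it stayed at 0.25 when adjusted over the 7 comparisons of this kind. In the optimal list the values were 9.42 points at intronic and 4.89 points at promoter peaks. Intronic summits there were at 65.8% and their flanks at 56.4%. The members' summits were thus close to intronic ones, and the members' flanks were the lower. The peak in composition was narrow: the mean fell from 67.4% in the 20 bp just after the summit to 59.7% around 90 bp and 54.4% around 190 bp. Members matched in the top lists of 3, 2 and 1 replicates were 66.9%, 65.8% and 65.1% A or T at the summit. The 15 members matched in none were at 66.5%. Members among the peaks of higher signal were at 67.2% and the other members at 65.8%. Intronic summits among the peaks of higher signal were at 67.5% and the other intronic summits at 64.3%.

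**Figure D1:**
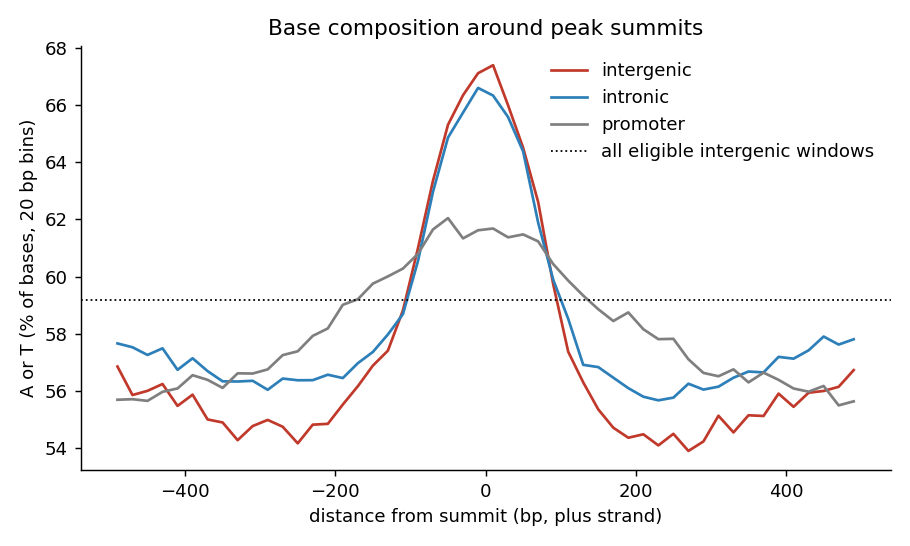
Mean A or T content in bins of 20 bp (y axis, percent) against distance from the summit (x axis, bp along the plus strand) for intergenic, intronic and promoter peaks, with the mean of all eligible intergenic windows as a dotted line at 59.2%. The intergenic curve has the highest centre of the 3 classes, with 67.4% just after the summit, and is the lowest around 190 bp, with 54.4%. Around 490 bp the promoter curve is lower, with 55.6% against 56.7%.

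Of 33 words searched on both strands, 7 (21.2%) differed between the members' summit windows and their flanks in an exact McNemar test with Benjamini-Hochberg adjustment at 0.05. Over the 3 peak classes, 32 of 99 such tests (32.3%) were called. All 7 words were also called at intronic summits, each in the same direction, so none was particular to the members. The 5 words that were more frequent at summits were AT-rich or core promoter words. The TATA box word TATAAA was in 21.4% of summit windows and 8.75% of flanks (exact McNemar adjusted p = 1.15e-15), against 12.5% of all eligible windows. In the replicates' own lists its summit share was 20.4%, 21.5% and 18.4%, with 7.92%, 7.48% and 7.44% in the flanks, so summits and flanks did not overlap. The word is itself one of the words of A and T alone, and it overlaps the next ones in part. The TA repeat ATATATAT was in 3.08% of summit windows and 0.567% of flanks (exact McNemar adjusted p = 2.06e-05), with 1.60% of all windows. Ohler motif 6 (GTATATTT or GTATTTTT) was in 3.73% against 0.972% (exact adjusted p = 3.13e-05), with 2.34% of all windows. The initiator core TCAGT was in 20.5% against 14.4% (exact adjusted p = 0.000464), with 15.3% of all windows. The homeodomain core TAATTA, bound by many patterning factors, was in 10.6% against 6.65% (exact adjusted p = 0.00308), with 7.40% of all windows.

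The other 2 words called were rarer at summits than in flanks. The CA repeat CACACACA was in 0.648% of summit windows, 3.65% of flanks and 2.04% of all windows (exact McNemar adjusted p = 1.0e-06). The CTCF-type core AGGNGGC was in 2.51% of summit windows, 5.43% of flanks and 3.42% of all windows (exact McNemar adjusted p = 0.00129). The Su(Hw) core was in 10 members, 0.810% of summits, against 0.162% of flanks and 0.242% of all windows, and missed the threshold here (adjusted p = 0.0955 by the exact McNemar test). At introns it was called, in 0.502% of summits and 0.0313% of flanks (exact McNemar adjusted p = 0.00129). Intergenic and intronic summits did not differ in it by Fisher's exact test (odds ratio 1.62, adjusted p = 0.640). After the member near CG15625, shown above, the next strongest of these 10 off the right arm of chromosome 2 was near CG15282 (signal 363, ranked 1965, 2320 and 2657 in the replicates). The Mef2 core CTAAAAATA was in 12 members, 0.972% against 0.243% of flanks (exact McNemar adjusted p = 0.0892). The DNA replication-related element TATCGATA, a word of housekeeping promoters, was in 2 of the 1234 members. The number of words called depended on the window, with 4 called within 25 bp of the summit and 12 within 100 bp. The words share the composition shift given above, and how much of each difference composition accounts for was not tested.

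**Figure D2:**
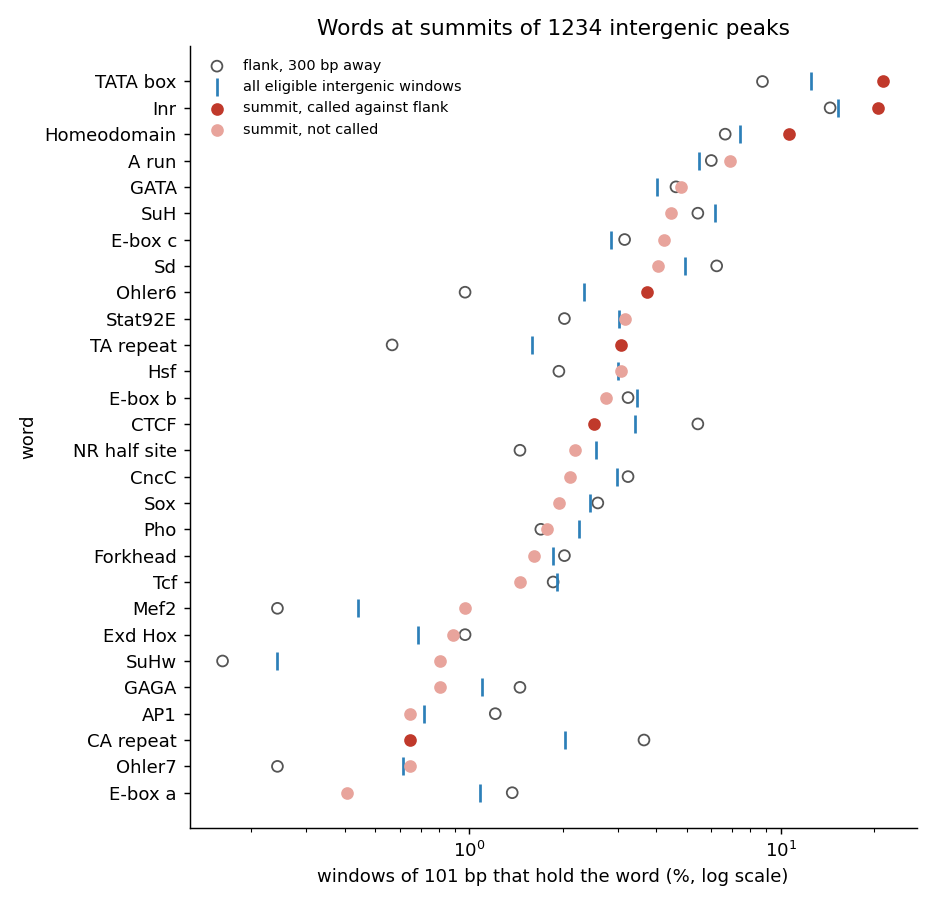
Percent of windows of 50 bp to each side of a position that hold each word (x axis, log scale) for words present in over about 0.6% of windows (y axis), with filled points for the 1234 summits, open circles for their flanks and blue ticks for all eligible intergenic windows (E-box a, b and c are 3 forms of the E-box). Dark points are words called against the flank: TATA stands at 21.4% against 8.75%, and the CA repeat at 0.648% against 3.65%.

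A scan of every word of 6 bases gave the same contrast without a choice of factor. It called 1028 (49.4%) by the exact McNemar test with Benjamini-Hochberg adjustment, 387 more frequent and 641 less frequent at summits. All 36 words made of A and T alone were among those more frequent. AATATA led, in 26.0% of summits and 7.05% of flanks, followed by TTAAAA (32.2% and 12.8%) and ATATTA (21.5% and 6.16%). Words with 1 C or G also appeared among the top 20, such as CTTAAA (18.8% and 5.35%), ATATTC (13.3% and 3.89%) and AAACTA (14.0% and 4.46%). The most depleted were GGGGCA (1.94% of summits and 9.32% of flanks), CCTGCC (1.22% and 6.97%) and CAGCCA (2.67% and 9.97%).

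Intergenic and intronic summits away from starts held most words at like shares, and 3 of the 33 (9.09%) differed by Fisher's exact test with Benjamini-Hochberg adjustment. All 3 were rarer at the members. The Forkhead core TGTTTAC was in 1.62% of intergenic and 4.45% of intronic summits (odds ratio 0.354, Fisher's exact adjusted p = 5.79e-05). Against flanks, where 32 of 99 tests over the 3 classes were called (32.3%), it was called at introns (4.45% against 2.07%) and not at the members (1.62% against 2.03%). The CA repeat was in 0.648% and 1.79% of summits (odds ratio 0.359) and a run of 8 A in 6.89% and 9.78% (odds ratio 0.682). Each had an adjusted p of 0.0362 by Fisher's exact test. The run of 8 A was also rarer in the members' flanks than in intronic flanks (5.997% against 8.245%). It was called against flanks neither at the members nor at introns (exact McNemar adjusted p = 0.534 and 0.0891). The CA repeat was in 3.65% of the members' flanks and 4.51% of intronic flanks, and was called as rarer at summits in both. Whether either word differed between the classes beyond its flank difference was not tested. The TATA word was at 21.4% of intergenic and 20.8% of intronic summits, and the homeodomain core at 10.6% and 9.40%, and neither difference was called. The Forkhead difference was still called without replicate 1 (1.71% against 4.32%) and without replicate 3 (1.63% against 4.31%). Without replicate 2 it had an adjusted p of 0.0555 by Fisher's exact test (1.82% against 4.12%), and among the peaks of higher signal one of 0.173 (1.80% against 4.30%). The other 2 words were not called when any replicate was left out.

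Members were on the whole weaker than promoter peaks and close to intronic ones. Their median signal, the authors' value for a peak's enrichment used here only to order peaks within a list, was 209, against 215 for intronic and 242 for promoter peaks. The 4275 peaks of higher signal took in 45.1% of members (exact 95% interval 42.3 to 48.0%), 47.3% of intronic and 54.2% of promoter peaks. The odds ratio was 0.696 against promoter peaks (adjusted p = 1.28e-07, Fisher's exact test) and 0.915 against intronic peaks (adjusted p = 0.254). In the replicates' own lists the share of members among the stronger peaks, split at the median, was 44.7%, 45.6% and 46.7%, below the intronic 47.7%, 47.8% and 47.1% and the promoter 53.6%, 53.5% and 54.1%. The members were lower in all 3 replicates, with an exact paired permutation p of 0.25 for each comparison. Among peaks found by both other replicates, the unadjusted p of the comparison with introns, 0.190 for all peaks by Fisher's exact test, was 0.0231 without replicate 1 (odds ratio 0.832) and 0.0238 without replicate 3 (0.837). Members were 86 of the 855 strongest peaks (10.1%) and 16.4% of the 855 weakest.

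The replicates found the members about as often as other peaks. A summit within 100 bp was in the top lists of all 3 replicates for 776 members (62.9%), against 64.8% of all optimal peaks. A further 292 members were matched in 2 lists, 151 in 1 and 15 in none, so the last were in the optimal list without a match in any replicate's top entries. The median signal of members fell with support, from 274 for those in all 3 lists to 158, 134 and 126 for those in 2, 1 and none. The optimal list holds the top entries of the pooled list, made from the same 3 replicates. A peak near its cut can thus miss a replicate's top list, so this fall follows in part from how the lists were made. Intronic peaks were in all 3 lists at 64.0% (odds ratio 0.951, Fisher's exact adjusted p = 0.486) and promoter peaks at 66.4% (0.859, Fisher's exact adjusted p = 0.0557). The odds ratio against introns moved to either side of 1 between matching distances and was not called under any of them.

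The 20 strongest members kept high ranks in every replicate, none ranking below 423. The strongest, 11907 bp from CG13323 in the 36.8 kb between it and the Polycomb-related gene Su(z)2 on 2R, had signal 3036 and rank 20 of the whole list, with ranks 27, 17 and 17 in replicates 1, 2 and 3. The member near CG31668 ranked 31 in the whole list, with replicate ranks 30, 31 and 27. Its interval of 5.81 kb, between CG31668 and the cytochrome c oxidase subunit gene COX7AL2, held another of the 20, 1450 bp from COX7AL2 (ranks 288, 282 and 175). The member near CG43245 ranked 57, 56 and 42. These 3 stood apart from the rest: the next, between the homeobox gene C15 and sp3, ranked 112, 149 and 134, and that near CG17896 on X ranked 159, 151 and 124.

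Of the others among the 20, one was 595 bp from the start of ds (dachsous), an atypical cadherin of planar polarity and growth control, with ranks 261, 236 and 172. One lay 970 bp from lncRNA:CR45234 (ranks 295, 174 and 242), and its nearest coding gene, CG7320, was 6292 bp away. Another was 1802 bp from E(spl)malpha-BFM, a Bearded-family gene of the Notch pathway (290, 276 and 188), and one 756 bp from jp, the junctophilin gene (194, 309 and 179). A member 853 bp from lncRNA:CR46113 had heca (headcase) as its nearest coding gene, 5230 bp away (204, 137 and 154). That near lncRNA:CR44526 had SrpRbeta as its nearest coding gene, 17501 bp away (223, 182 and 279). The rest of the 20 lay near tRNA:Ile-TAT-1-2 (2 members), CG13898, lncRNA:CR42794, DNAlig3, lncRNA:CR45937, lncRNA:CR45251 and yip3. Their nearest coding genes included CG3149, CheA75a and CG6163. Nearness is position alone and does not say which gene a peak acts on.

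**Figure D3:**
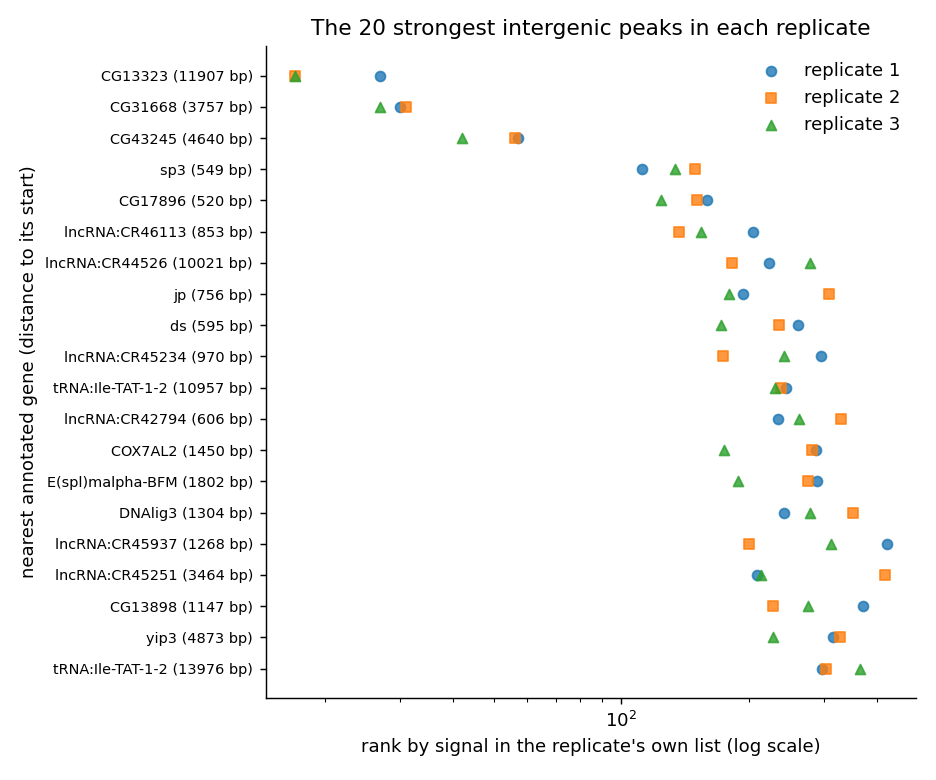
Rank by signal (x axis, log scale, 1 is the strongest) of the 20 strongest intergenic peaks in each replicate's own list, with the nearest annotated gene and the distance to its start on the y axis. The first 3 peaks hold ranks between 17 and 57, and no replicate places any of the 20 below rank 423.

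Members were denser near starts than far from them. The intergenic DNA that meets the rule is 36.5 Mb, 27.2% of the 6 chromosome arms studied (134 Mb), and held 33.8 members per Mb. Density was 71.5 per Mb at 500 to 1000 bp from a start, 56.8 at 1000 to 2000 bp, 40.6 at 2000 to 5000 bp and 37.9 at 5000 to 10000 bp. It was 20.8 per Mb at 10000 to 20000 bp and 4.16 beyond 20000 bp. The nearest band held 70.4, 72.6 and 68.7 per Mb in replicates 1, 2 and 3 and the farthest 3.91, 4.16 and 3.28, with no overlap (exact paired permutation p = 0.25). The median member was 3138 bp from a start, with a range of 504 to 39359 bp, against 5942 bp for the eligible bases and 2912 bp for intronic peaks. Beyond 20000 bp, 77.4% of the sequence lay in intervals without any entry in the pooled relaxed list (30000 entries, background included). There the part in intervals with an entry held 18.4 members per Mb, and the same count at 500 to 1000 bp was 176, but intervals were then chosen on the peaks themselves.

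**Figure D4:**
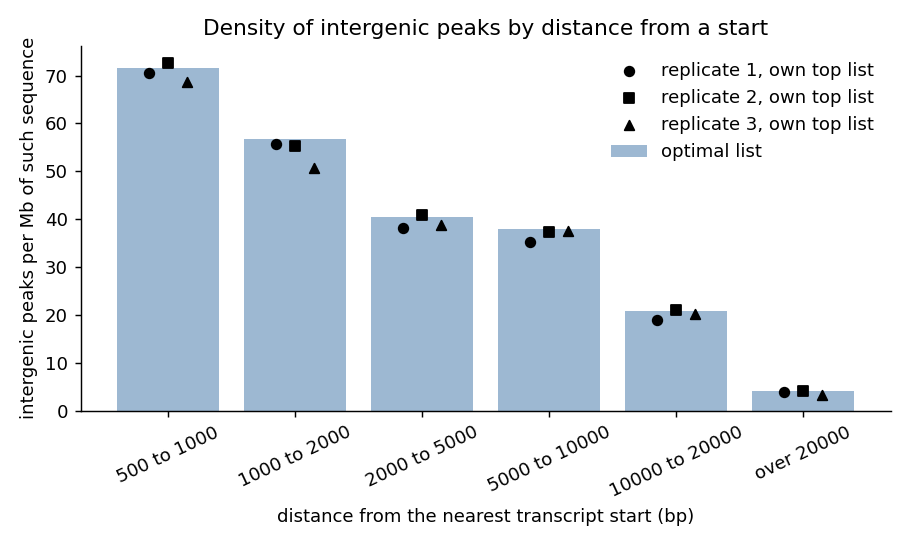
Intergenic peaks per Mb of eligible sequence (y axis, from 0) by distance from the nearest transcript start (x axis, bp), with bars for the optimal list and points for the top list of each replicate. Density falls from 71.5 per Mb in the nearest band to 4.16 per Mb in the farthest, and each replicate keeps the nearest band highest and the farthest lowest.

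At the edge of the rule, the members closest to a start were 504 bp from ft (the cadherin fat), 506 bp from lncRNA:CR45541 and 507 bp from Sqor, with signals of 279, 157 and 349. Just outside it lay peaks 494 bp from lncRNA:CR45292, 494 bp from nw and 492 bp from Mkp3, a phosphatase gene of MAP kinase signalling, with signals of 346, 347 and 506. DNA between divergent genes held 45.5 members per Mb, between tandem genes 32.7 and between convergent genes 31.8. Over the replicates the values were 43.8 ± 1.49, 32.0 ± 0.762 and 29.9 ± 1.24 (SD, n = 3), and the divergent class was the highest in all 3 replicates (exact paired permutation p = 0.25 for each). Divergent genes have their starts at the ends of the interval, and density fell with distance from a start. The longest intervals without a member, given below, lay between tandem or convergent genes. How much of the difference follows from these was not tested. The arms differed too, with 44.5 members per Mb on 3L, 38.0 on 2L, 36.5 on 3R, 22.8 on 2R, 22.6 on X and 20.4 on chromosome 4, which holds 5 members. Over the replicates 3L held 43.4 ± 0.387 per Mb and X 21.4 ± 1.75. Arm 3L thus held 404 members, 32.7% of them, in 24.9% of the eligible sequence, and 22.4% of all optimal peaks.

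Most intervals between genes held no member, and some held several. Of 6516 intervals between genes with eligible sequence, 700 held a member, 458 of them a single one. The 38 intervals with 5 or more held 266 members (21.6%) in 2.94% of the eligible sequence, a share that follows in part from choosing intervals by their count. The interval with most, 75.0 kb between NijA (ninjurin A) and CG43245 on 3L, held 14 members, and 15, 16 and 17 in replicates 1, 2 and 3. The strong member near CG43245 shown above lay just beyond that gene. The next, 33.0 kb between tRNA:Ile-TAT-1-2 and CG13898, held 12, and 11 in each replicate. Together with the 14.0 kb between hng3 and tRNA:Ile-TAT-1-1 (7 members) it formed a stretch of 47.9 kb on 3L with 19 members, and 17, 18 and 18 in the replicates. The gene emc (extra macrochaetae, chr3L:749400-753492), an inhibitor of proneural factors, lies within hng3 beside that stretch and is named here after its values were seen.

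The other intervals among the 10 with most members were of like kind. The 18.7 kb between CG18404 and lncRNA:CR46113, on the side of heca, held 11 members, and 11, 12 and 11 in the replicates. Those between CG17154 and vers (10 members) and between AOX4 and CG43335 (10 members) varied more, with 8, 7 and 12, and 8, 10 and 6. The 18.9 kb between lncRNA:CR45755 and lncRNA:CR45437 held 9, and the 25.8 kb between lncRNA:CR44526, on the side of hry (hairy, a segmentation and bristle repressor), and SrpRbeta held 9. The 33.6 kb upstream of Eip93F, the ecdysone-induced factor E93 of metamorphosis, and downstream of Qsox2, held 8 members in the optimal list and 8 in every replicate. The 37.6 kb between the homeobox gene ems and Art9 held 8, and 8, 9 and 7. These 10 intervals, likewise chosen by count, took 98 members (7.94%) in 0.990% of the eligible sequence. Of the 375 intervals with 20 kb or more of eligible sequence, 265 held no member. Empty intervals were more common among all 6516 with eligible sequence, of which 700 held a member. The longest of these, 711 kb on 3L between CG42598 and CG40228, also had no entry in the pooled relaxed list, and neither had the next 4.

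**Figure D5:**
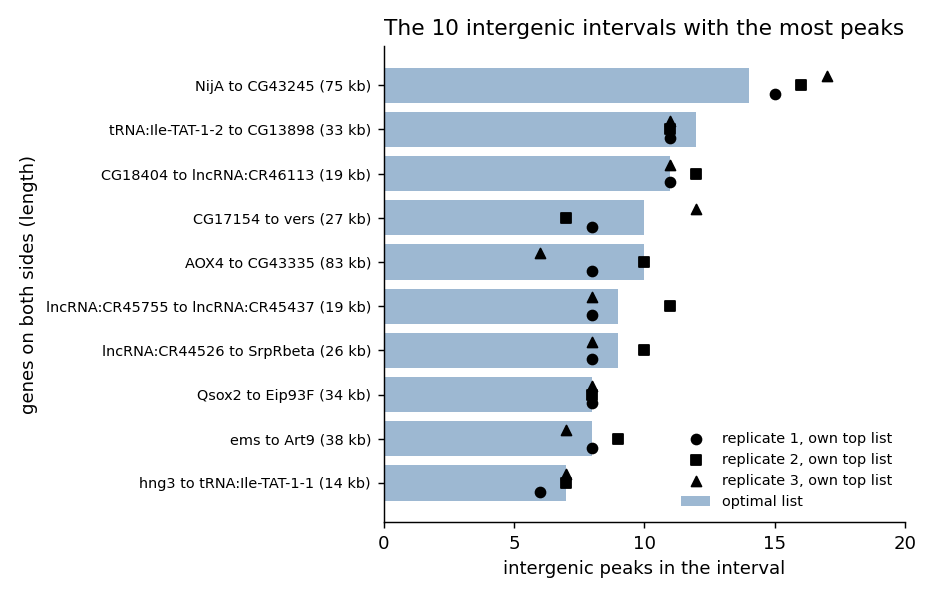
Number of intergenic peaks (x axis) in the 10 intervals between genes that hold the most (y axis, with the genes on both sides and the length), as bars for the optimal list and points for the top list of each replicate. The interval between NijA and CG43245 leads with 14 peaks and 15, 16 and 17 in the replicates, and that between Qsox2 and Eip93F has 8 in every list.

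The nearest coding gene of a member had a promoter peak of its own in 379 cases, 30.7% of members (exact 95% interval 28.1 to 33.4%), and in 30.2%, 31.5% and 31.6% in the replicates' lists. Of the eligible bases, 13.4% had such a gene nearest, and of all 13945 coding genes 29.0% had a promoter peak. The share was 34.6% for members within 5000 bp of that start and 26.7% for the 606 farther away. When peaks were kept only if both other replicates had them, which also removes promoter peaks, the share was 23.8%, 21.8% and 24.8% without replicates 1, 2 and 3. Among the peaks of higher signal it was 19.2%. With promoter peaks counted to 1000 bp it was 43.9%, but members within 1000 bp of a coding start then count as its promoter peaks. That rise thus follows in part from the count itself. The nearest start of any kind belonged to a coding gene for 64.2% of members (67.1% of eligible bases), to a long noncoding or other noncoding RNA for 32.3% (25.5%), and to a tRNA for 2.67% (0.902%). Pseudogene starts were nearest for 6 members, 0.486%, against 5.40% of the eligible bases. How much of those bases lay in intervals without a relaxed entry was not counted.

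The share of members near patterning, signalling, ecdysone response, cell cycle and cuticle genes exceeded these genes' share of the eligible sequence, for cell cycle genes with 3 members alone. These are counts, with no test, and the groups were listed with earlier results known. Of the eligible bases, 50.6% lay in intervals without any entry in the pooled relaxed list. How these bases fall among the groups was not counted, which limits every comparison with a share of bases. For scale, 691 of 13945 coding genes (4.96%) were nearest to at least 1 member. Genes for homeobox and patterning factors were nearest to 82 members, 6.65% of them, with 3.67% of the eligible bases, and 43 of the 111 genes had at least 1. In the replicates the share was 6.41 ± 0.416% (SD, n = 3). The strongest were near zfh2 on chromosome 4 (3903 bp, signal 600, ranks 1112, 983 and 959), dac, an eye and leg factor (527 bp, signal 447), and Dr, the muscle segment homeobox gene (10804 bp, signal 442). Secreted signals were nearest to 27 members, 2.19% against 0.680% of bases, from 13 of 45 genes. Among them were Wnt10 (5162 bp, signal 743, ranks 625, 680 and 766), upd1, a ligand of the JAK/STAT pathway (14045 bp, signal 563), and hh (hedgehog), with 4 members, the strongest 7347 bp away (signal 468). Ecdysone response genes were nearest to 13 members, 1.05% against 0.171% of bases, from 6 of 34 genes. Eip93F had 5 of these, the strongest 7500 bp away (signal 583, ranks 1315, 6732 and 818), ImpE1 had 2 and Ldh, the lactate dehydrogenase gene, had 3.

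Other groups held few members. The Hox genes had 2 (0.162% of members against 0.184% of bases), near Antp (25493 bp, signal 417) and Dfd (26975 bp, signal 174). Cell cycle genes had 3, 0.243% against 0.0265% of bases, near CycB (cyclin B), Cdk4 and dap, a cyclin-dependent kinase inhibitor. The member near CycB was 3316 bp away, with signal 939 and ranks 457, 369 and 421. That near Cdk4 was 631 bp away, with signal 200 and ranks 6951, 4742 and 6796. That near dap was 530 bp away, with signal 135 and ranks 7894, 13303 and 23389. Its ranks in replicates 2 and 3 lay outside their top lists. No member had any of the 36 neuropeptide genes nearest. These genes held 1.04% of the eligible bases, and how much of that lay in intervals without a relaxed entry was not counted. Cytoplasmic ribosomal protein genes had 4 members (0.324% against 0.937%), with RpS15Aa, RpS23 and RpL22 the strongest. Chemosensory genes had 20 (1.62% against 2.04%), led by the odorant binding protein gene Obp56h (signal 1044) and the taste receptor genes Gr93d and Gr93b (852 and 478). Cuticle genes had 10 (0.810% against 0.545%), led by Cpr51A, Cpr72Eb and Cpr76Ba. Neuronal genes had 3 (0.243% against 0.319%), near unc-5 and robo2, both guidance receptors, and nAChRalpha7. Muscle genes had 2 (0.162% against 0.275%), with 1 each near the actin genes Act87E and Act57B. Immune genes had 1 (0.0810% against 0.0804%), near PGRP-SA, an immune receptor.

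Summits in annotated transposable elements were rare. There were 3 of 1234 (0.243%, exact 95% interval 0.0502 to 0.709%), while such elements made up 10.8% of the eligible bases. The replicates gave 0.341%, 0.244% and 0.342%, and intronic peaks 4 of 3190. The 3 members were in an INE-1 element near ed (echinoid), in an H element near lncRNA:CR43685 and in an HB element near del (deadlock), with signals of 231, 176 and 161. Outside these elements the members' density was 37.9 per Mb. How reads that match several copies were treated is not given in the sources used here, and its part in this count was not tested.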

How the data were processed

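Peak lists from 3 biological replicates of 1 group were analysed as deposited on dm6. Per the file listing, the authors called relaxed lists on each replicate and on the pooled replicates against a control alignment, and derived the optimal list by the irreproducible discovery rate. Aligner, peak caller and threshold: not given in the sources used here. How the authors scaled the deposited signal between lists is not stated, and it served only to order peaks inside 1 list. No read counts are in the lists, so depth is unknown, and the exact binomial intervals (95%) cover counting error only. The dm3 lists were not used here.

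Genes and starts came from Ensembl release 115 and bases from RefSeq's copy of dm6, with 1-based coordinates. Replicate lists were reduced to their top 8551 entries, and summits matched within 100 bp. Both strands were searched for words within 50 bp of a summit and in a window 300 bp to a seeded side, compared by exact McNemar tests adjusted by Benjamini-Hochberg over the 99 tests of 33 words in 3 peak classes, called at 0.05. Classes were compared by two-sided Fisher's exact tests, adjusted over 4 comparisons for signal and support and over 33 words, and replicate values by two-sided exact permutation tests within replicates, since each replicate gives every class; these last tests were added after the data were seen. Peaks and their sequences are not replicates, so Fisher and McNemar p-values say nothing of how larvae vary.

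The members, the 12 gene lists and the words were chosen with earlier results of these data known. Named genes are the nearest gene and nearest coding gene of the 20 strongest members, the genes on both sides of the 10 intervals with most members, up to 3 genes with the strongest members per list, the strongest carrier off 2R of a named word, and the members at the edge of the rule. Outside this rule, Su(z)2 and C15 (borders of the intervals of strong members), CG15282, the genes near members in transposable elements, and emc were named after their values were seen. The functions were tested on simulated data. Alternatives were leaving out each replicate, the peaks of higher signal, starts at other distances, coding genes alone, and other windows, flanks and matching distances. The tools were scipy 1.17.1, numpy 2.4.6 and pandas 2.3.3 under Python 3.11.15, with figures by matplotlib 3.10.9.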

Additional observations from a re-analysis of the deposited data

How the results depend on the processing

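The study has 1 group, so no groups of larvae could be paired, and peak classes were compared within replicates. A replicate was left out by keeping peaks found in both other top lists (6138, 5919 and 6467 peaks). Of 75 recomputed values, 43 stayed close to the reported one or on its side of the threshold. The intergenic share was 13.9 to 14.3% without a replicate, 13.0% among peaks of higher signal, 17.1% and 12.1% with starts at 250 and 1000 bp, and 17.7% with coding genes alone. The odds ratio of support against introns was 0.920 to 1.01 without a replicate and 1.03 with matching at 50 bp, so its direction turned, and no value was called. That of higher signal was 0.832 to 0.886 without a replicate, with unadjusted p of 0.0231 and 0.0238 (Fisher's exact test) without replicates 1 and 3, against 0.190 with all. Words called at summits numbered 7 to 8 without a replicate, 4 within 25 bp and 12 within 100 bp. Words that differed from introns numbered 0 to 1 without a replicate, and 0 among peaks of higher signal and within 25 bp. The composition difference was 12.3 to 12.7 points without a replicate, 13.0 among peaks of higher signal, 12.9 beyond 1000 bp and 9.32 against flanks at 500 bp. The share whose nearest coding gene had a promoter peak was 21.8 to 24.8% without a replicate and 19.2% among peaks of higher signal. It was 40.0% and 29.7% with starts at 250 and 1000 bp, and 43.9% with promoter peaks to 1000 bp. With starts at 250 bp, members within 500 bp of a coding start count as its promoter peaks. In the last setting those within 1000 bp do. Both rises thus follow in part from the count itself. The share in transposable elements was 0.228 to 0.327% without a replicate, 0.180% among peaks of higher signal and 0.0969% beyond 1000 bp. The number of 6-base words called was 867 to 962 without a replicate. These alternatives change the number of peaks, and the cause of each shift was not tested. Without read counts, the depth behind weak members is unknown.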
